A study of Homo sapiens with 4 samples.

Results

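The genes examined here were the human HSP90 paralogs HSP90AA1, HSP90AB1 and HSP90B1 and their mitochondrial relative TRAP1, taken as the 4 rows of the count table whose Ensembl identifiers carry these symbols. They were 4 of 63677 genes counted and 4 of 15116 genes tested. RNA was sequenced from HCT116, an established human colorectal carcinoma cell line, after transfection of an antisense oligonucleotide (ASO) against GAA repeats or of a control ASO for 48 h, as the labels give it. Both groups were the same line in the same medium, without any other agent named, and each had 2 libraries, numbered replicates 1 and 2. The sample titles share a number between the anti-GAA and the control library of the same replicate, but no label says what it marks. The study describes the replicates as duplicate experiments and its experiments as done independently, while the labels do not name separate cultures, and p-values measure the spread between these libraries. The ASO was designed to pair with RNAs that hold tandem GAA units and to direct their cleavage by RNase H. The question addressed here was whether paralogs that differ in their GAA runs also differed in RNA level between the ASO groups. The study's methods give a shorter ASO transfection and another library kit than the labels do.

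HSP90 proteins are ATP-dependent chaperones that act as dimers late in the folding of their clients, among them many kinases and steroid receptors. HSP90AA1 encodes the heat-inducible cytosolic form (HSP90 alpha), HSP90AB1 the constitutive cytosolic form (HSP90 beta), HSP90B1 the endoplasmic reticulum form (GRP94), and TRAP1 the mitochondrial form. In the cytosolic and endoplasmic reticulum forms, a charged linker rich in glutamate and lysine joins the ATP-binding domain to the middle domain, and TRAP1 lacks this linker. Glutamate is encoded by GAA or GAG and lysine by AAA or AAG, so that stretches of these residues can be read as GAA repeats in any of several frames.

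The libraries held between 10538284 and 17894953 counts, with the lowest total in anti-GAA replicate 1 and the highest in anti-GAA replicate 2. Levels are given as CPM, a gene's counts relative to the library total after TMM scaling. Of epithelial markers, EPCAM, KRT8, KRT18 and CDH1 were all detected and summed to between 1224 and 1535 CPM per library. In contrast, 3 blood cell markers (PTPRC, CD3E, CD14) summed to at most 0.717 CPM, with CD3E at 0, and 2 endothelial markers (PECAM1, CDH5) to at most 0.0562 CPM, with PECAM1 at 0. The fibroblast markers COL1A2 and DCN were at 0, while COL1A1 was measured at 10.1 to 14.6 CPM.

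The 4 coding sequences differed in their longest perfect GAA run, that is, the longest stretch in which GAA repeats without a mismatch in any frame. Sequences and positions are from GENCODE 44 on GRCh38, and codons are counted in the MANE Select transcript of each gene. Runs and matches were searched in the coding sequence of each gene's longest protein-coding transcript. For TRAP1 this has 1485 nt, against 2112 nt in the MANE Select transcript. The longest run had the same length in the MANE Select coding sequence of each gene. The longest run had 19 nt in HSP90AA1 (chr14:102084824-102084842, minus strand, exon 5 of 11, codons 274 to 280), 15 nt in HSP90B1 (chr12:103938424-103938438, plus strand, exon 7 of 18, codons 314 to 318), 12 nt in HSP90AB1 (chr6:44252182-44252193, plus strand, exon 10 of 12, codons 549 to 553) and 9 nt in TRAP1 (shown at chr16:3663494-3663502, minus strand, exon 14 of 18, codons 544 to 546). All of these lie in coding exons. The runs are shown in 30 nt of the RNA strand because they are the feature by which the paralogs are compared, with the perfect run in capitals.
HSP90AA1: gtgacAAGAAGAAGAAGAAGAAGAttaagg
HSP90B1: agtagagGAAGAAGAAGAAGAAaagaaacc
HSP90AB1: atgaggaggAGAAGAAGAAGAtggaagaga
TRAP1: tgagtttgacAAGAAGAAGctgatctctgt
In HSP90AA1 the reading frame falls on AAG, so that the 19 nt run is a lysine stretch, whereas in HSP90B1 it falls on GAA and the 15 nt run is a glutamate stretch. The runs of HSP90AB1 and TRAP1 shown here are also read as AAG.

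In the coding sequences searched, runs of at least 9 nt numbered 3 in HSP90AA1, 2 in HSP90AB1, 6 in HSP90B1 and 2 in TRAP1. Runs elsewhere in the longer MANE Select coding sequence of TRAP1 were not counted. The 3 runs of HSP90AA1 lie close together between codons 241 and 280. HSP90B1 carries a second run of 12 nt near its 3′ end (chr12:103947410-103947421, exon 17, codons 788 to 791), which is shown as its other run at the length of that of HSP90AB1.
HSP90B1, second run: ggaacagatGAAGAAGAAGAAacagcaaag
The densest window of 100 codons for glutamate and lysine codons held 51 of them in HSP90AA1 (codons 190 to 289), 46 in HSP90AB1 (codons 185 to 284) and 42 in HSP90B1 (codons 285 to 384), compared with 25 in TRAP1 (codons 482 to 581). The longest runs of HSP90AA1 and HSP90B1 fall inside their window, whereas that of HSP90AB1 does not.

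HSP90AA1 and HSP90AB1 encode nearly the same share of glutamate and lysine with different codons. These codons made up 24.2% of HSP90AA1, 23.6% of HSP90AB1, 22.9% of HSP90B1 and 14.8% of TRAP1. GAA was used for 76.4% of the glutamate codons of HSP90B1 (81 GAA and 25 GAG) and for 53.6% of those of HSP90AA1 (52 GAA and 45 GAG). For HSP90AB1 it was 34.4% (33 GAA and 63 GAG) and for TRAP1 15% (9 GAA and 51 GAG). The order of GAA use was thus HSP90B1, HSP90AA1, HSP90AB1 and TRAP1, while the order of the longest run began with HSP90AA1.

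The same coding sequences were also searched for the best match to 7 tandem GAA units (21 nt), allowing mismatches. For TRAP1 the search covered 1485 nt and not the whole MANE Select coding sequence. The windows are shown with matching bases in capitals, because they separate a broken from an unbroken match.
HSP90AA1, chr14:102084823-102084843: cAAGAAGAAGAAGAAGAAGAt
HSP90B1, chr12:103938418-103938438: GtAGAgGAAGAAGAAGAAGAA
HSP90AB1, chr6:44251125-44251145: GAAcAAGAAGAAaAAGAAcAA
TRAP1, chr16:3664284-3664304: ctAtgAGgccAtGAAGAAGAA
HSP90AA1 and HSP90B1 each matched at 19 of 21 bases, and the longest unbroken stretch was 19 nt in the former and 15 nt in the latter. HSP90AB1 matched at 18 of 21 bases, close to both, but its mismatches are spread so that no more than 8 bases in a row matched. TRAP1 matched at 13 of 21 bases. Within these windows, HSP90AB1 is close to HSP90AA1 and HSP90B1 in mismatches and close to TRAP1, with 9 nt, in unbroken length.

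The RNAs of the cytosolic forms were among the most abundant. By mean CPM over the 4 libraries, HSP90AA1 ranked 12, HSP90AB1 38, HSP90B1 131 and TRAP1 4922 among the tested genes. Per kb of the MANE Select transcript, the control level was 1583 ± 64.4 CPM per kb for HSP90AA1, 872 ± 36.1 for HSP90AB1, 386 ± 48.3 for HSP90B1 and 16.1 ± 4.99 for TRAP1 (SD, n = 2). No neighbours in this order overlapped in the control libraries. With the anti-GAA ASO the level was 1175 ± 676 CPM per kb for HSP90AA1 and 1015 ± 108 for HSP90AB1 (SD, n = 2), so that the first neighbours in the order did not differ beyond their spread. In anti-GAA replicate 1 HSP90AA1 was above HSP90AB1 (1653 and 939 CPM per kb), and in anti-GAA replicate 2 it was below (697 and 1092 CPM per kb).

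**Figure D1:**
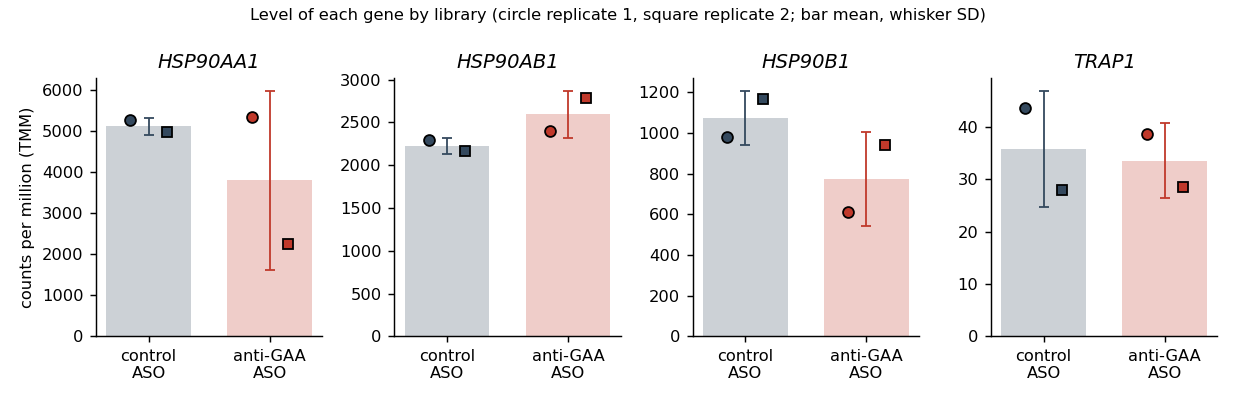
Level of each gene in CPM (TMM, y axis from 0, a separate scale per gene) in the control ASO and anti-GAA ASO libraries, with circles for replicates 1, squares for replicates 2, bars for means and whiskers for SD (n = 2). HSP90AA1 is low only in anti-GAA replicate 2, both anti-GAA libraries are above both control libraries for HSP90AB1 and below them for HSP90B1, and the groups of TRAP1 overlap.

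None of the 4 genes passed the test between the ASO groups. At an adjusted p under 0.05, edgeR's quasi-likelihood test called 0 of the 4, where it called 0% of the 15116 tested genes in either direction. At an unadjusted p under 0.05 it also called 0 of the 4, where 3.46% of all tested genes were lower and 1.02% higher with the anti-GAA ASO, and DESeq2 called 0 of the 4 at either threshold. A fit in edgeR that blocked on replicate number also called 0 of the 4 at an adjusted p under 0.05, where 1.37% of all tested genes were lower and 0.337% higher. In bulk RNA, fewer cells of a type and less RNA per cell cannot be told apart.

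HSP90AA1, with the longest run, was measured at 5335 CPM in anti-GAA replicate 1 and 2249 CPM in anti-GAA replicate 2, against 5256 CPM in control replicate 1 and 4962 CPM in control replicate 2. After TMM scaling, only anti-GAA replicate 2 was low, while anti-GAA replicate 1 was the highest of the 4 libraries, so the groups overlapped. Relative to the unscaled library totals, both anti-GAA libraries were below both control libraries. The means were 3792 ± 2183 CPM with the anti-GAA ASO and 5109 ± 208 CPM with the control ASO (SD, n = 2). The log2 fold change was −0.43 (SE 0.38, 95% interval −1.34 to 0.48, edgeR adjusted p = 0.996). With scaling to total counts it was −0.54. Between libraries of the same replicate number, the difference in log2 CPM after TMM scaling was 0.022 for replicates 1 and −1.14 for replicates 2. A difference of −1 or lower in replicates 2 was found for 4.35% of all tested genes (3.86% in replicates 1), and anti-GAA replicate 2 was the lowest of the 4 libraries for 22.5% of them. Without anti-GAA replicate 2 the log2 fold change turned to 0.066, and without anti-GAA replicate 1 it was −1.18 (edgeR adjusted p = 0.557). Anti-GAA replicate 2 was also the library with the highest total, at 17894953 counts, and the part of depth in this value was not tested.

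HSP90AB1, the constitutive cytosolic form, was measured at 2399 and 2790 CPM in anti-GAA replicates 1 and 2 and at 2292 and 2162 CPM in control replicates 1 and 2. After TMM scaling, both anti-GAA libraries were above both control libraries, which held for 15.5% of all tested genes. Relative to the unscaled library totals, the groups overlapped, with anti-GAA replicate 1 below both control libraries. The means were 2594 ± 276 and 2227 ± 92.2 CPM (SD, n = 2), with a log2 fold change of 0.22 (SE 0.20, 95% interval −0.25 to 0.69, edgeR adjusted p = 0.996). The differences by replicate number after TMM scaling were 0.066 and 0.37, both above 0, as for 31.8% of all tested genes. The log2 fold change was 0.11 without anti-GAA replicate 2, 0.33 without anti-GAA replicate 1 and 0.13 with scaling to total counts.

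HSP90B1, the form of the endoplasmic reticulum, was measured at 610 and 939 CPM in anti-GAA replicates 1 and 2 and at 979 and 1169 CPM in control replicates 1 and 2. Both anti-GAA libraries were below both control libraries, which held for 16.9% of all tested genes. The means were 775 ± 233 and 1074 ± 134 CPM (SD, n = 2), with a log2 fold change of −0.47 (SE 0.26, 95% interval −1.08 to 0.14, edgeR adjusted p = 0.996). The differences by replicate number were −0.68 and −0.32, both below 0, as for 30% of all tested genes. The log2 fold change was −0.81 without anti-GAA replicate 2 and −0.19 without anti-GAA replicate 1. With the length and GC correction it was −0.37, and with scaling to total counts −0.56. In contrast to HSP90AA1, the lower of the anti-GAA libraries was replicate 1, the library with the fewest counts (10538284), and the part of depth was not tested.

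TRAP1, the mitochondrial form with the shortest runs, was measured at 38.7 and 28.5 CPM in anti-GAA replicates 1 and 2 and at 43.7 and 28.0 CPM in control replicates 1 and 2. The libraries of replicates 1 were higher than those of replicates 2 in both groups, and the groups overlapped. The means were 33.6 ± 7.21 and 35.9 ± 11.1 CPM (SD, n = 2), with a log2 fold change of −0.10 (SE 0.29, 95% interval −0.78 to 0.58, edgeR adjusted p = 0.996). The differences by replicate number were −0.17 and 0.025. Without control replicate 1 the log2 fold change turned to 0.25 and without anti-GAA replicate 2 to 0.11.

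The genes with 19 and 15 nt runs therefore had log2 fold changes of −0.43 and −0.47, that with a 12 nt run 0.22, and that with 9 nt runs −0.10, with 95% intervals that all included 0. When a library was left out, the first spanned −1.18 to 0.066, the second −0.81 to −0.19, the third 0.11 to 0.33 and the last −0.37 to 0.25, so that only HSP90B1 and HSP90AB1 kept their sign. Across all 15116 tested genes, 48.4% had a log2 fold change below 0. Among the 12171 tested genes with a coding sequence, 10 genes (0.0822%) had a coding run of at least 19 nt, HSP90AA1 among them, and the log2 fold change was below 0 for 8 of them, with a median of −0.27. Their median difference by replicate number was −0.035 in replicates 1 and −0.39 in replicates 2. A run of at least 15 nt, the length found in HSP90B1, was held by 79 genes (0.649%), of which 66 (83.5%) had a log2 fold change below 0, with a median of −0.40. For these the median differences were −0.28 and −0.42. A run of at least 12 nt, the length found in HSP90AB1, was held by 324 genes (2.66%), of which 235 (72.5%) were below 0, with a median of −0.16, and HSP90AB1 was one of the 89 above 0. A run of at least 9 nt, as in TRAP1, was held by 2266 genes (18.6%), of which 59.9% were below 0, with a median of −0.066. These counts include the members and are a description, since genes in 1 library are not independent.

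Ratios between the paralogs within a library do not depend on the scaling of the libraries. HSP90AA1 had 2.22 counts per count of HSP90AB1 in anti-GAA replicate 1 and 0.806 in anti-GAA replicate 2, against 2.29 in control replicate 1 and 2.30 in control replicate 2. As a share of the counts of both cytosolic genes, HSP90AA1 held 69.0% (Wilson 95% interval 68.7 to 69.3) and 44.6% (44.3 to 44.95) in the anti-GAA libraries and 69.6% (69.4 to 69.9) and 69.7% (69.4 to 69.9) in the control libraries. These intervals cover counting error only. The share was thus nearly the same in 3 libraries and lower in anti-GAA replicate 2, where HSP90AA1 was no longer the larger of the pair. The difference in the log2 ratio, anti-GAA minus control, was −0.78, made up of −0.044 in replicates 1 and −1.51 in replicates 2 (two-sided exact permutation p = 0.333, adjusted p = 0.800 over 6 ratios). With 2 against 2 libraries, 0.333 is the smallest p that this test can give.

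The ratio with the most even difference was that of HSP90AB1 to HSP90B1. Its log2 value was 1.98 and 1.57 in anti-GAA replicates 1 and 2 and 1.23 and 0.89 in control replicates 1 and 2, with both anti-GAA libraries above both control libraries. The difference was 0.72, with 0.75 in replicates 1 and 0.68 in replicates 2 (two-sided exact permutation p = 0.333, adjusted p = 0.800 over 6 ratios). With the length and GC correction the difference was 0.59. On the linear scale HSP90AB1 had 3.93 and 2.97 counts per count of HSP90B1 with the anti-GAA ASO, and 2.34 and 1.85 with the control ASO.

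The other ratios overlapped between the groups. For HSP90AA1 to HSP90B1 the log2 difference was −0.061, with 0.70 in replicates 1 and −0.83 in replicates 2. For HSP90AA1 to TRAP1 it was −0.48, with 0.20 and −1.17. For HSP90AB1 to TRAP1 it was 0.29, with 0.24 and 0.34, and for HSP90B1 to TRAP1 it was −0.42, with −0.51 and −0.34. Thus the ratio between the paralogs with the 19 and the 15 nt run had opposite signs in replicates 1 and 2, as did that of HSP90AA1 to TRAP1. The 3 ratios without HSP90AA1 kept their sign in both, and so did that of HSP90AA1 to HSP90AB1 (−0.044 and −1.51).

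**Figure D2:**
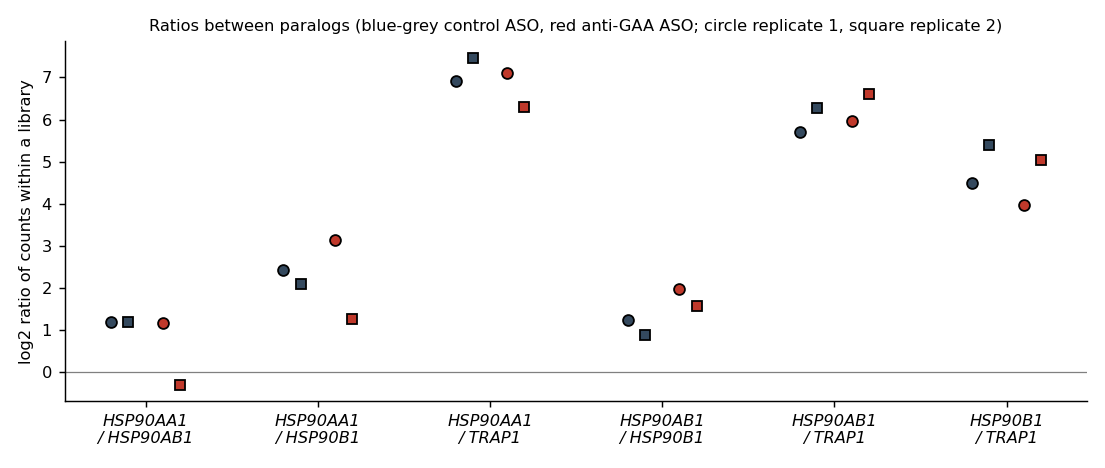
Log2 ratio of counts between each pair of genes within a library (y axis), with control ASO libraries in blue-grey, anti-GAA ASO libraries in red, circles for replicates 1 and squares for replicates 2. For HSP90AA1 to HSP90AB1 a lone anti-GAA point lies at −0.31 and the other libraries lie between 1.15 and 1.20, while for HSP90AB1 to HSP90B1 both anti-GAA points lie above both control points.

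The HSP90 genes have processed pseudogenes of near-identical sequence, so that reads can be split between a gene and its copies, and values of the copies are uncertain. With the counts of the listed copies summed into their parents, the log2 fold change was −0.429 for HSP90AA1, 0.216 for HSP90AB1 and −0.489 for HSP90B1. Without the summing it was −0.430, 0.220 and −0.471. Of 12 listed pseudogenes, 11 were matched in the counts, 8 had any count and 4 were tested. None passed the test by edgeR or DESeq2, also at an unadjusted p under 0.05. At that threshold edgeR found 3.46% of all tested genes lower and 1.02% higher. The log2 fold change was below 0 for 3 of the 4. Without anti-GAA replicate 2 it was 2 of 6 tested, and without anti-GAA replicate 1 it was 5 of 5. HSP90AA2P had 1338 and 491 counts in anti-GAA replicates 1 and 2 and 1427 and 1863 in control replicates 1 and 2. It was lowest in anti-GAA replicate 2, as its parent HSP90AA1 was, with differences in log2 CPM of 0.54 in replicates 1 and −1.99 in replicates 2. Its share of the counts of the pair was 2.47% and 1.21% in the anti-GAA libraries and 1.74% and 2.17% in the control libraries. The longest GAA run of HSP90AA2P has 16 nt.

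HSP90AA4P, with a run of 31 nt, had 27 and 5 counts with the anti-GAA ASO and 38 and 39 with the control ASO, and its differences were 0.13 and −2.55. HSP90AA3P, which was named after its values were seen, had 94 and 42 against 109 and 173 counts, with differences of 0.41 and −2.05 and a run of 15 nt. These 3 copies of HSP90AA1 were lowest in anti-GAA replicate 2 and, in anti-GAA replicate 1, above control replicate 1. HSP90AB3P, a copy of HSP90AB1 with a run of 12 nt, had 130 and 66 against 132 and 83 counts, with differences of 0.60 and −0.39.

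HSP90B2P, a copy of HSP90B1 with a run of 12 nt, had 125 and 598 counts with the anti-GAA ASO and 559 and 730 with the control ASO. Like its parent it was lowest in anti-GAA replicate 1, with differences of −1.52 and −0.36. Its share of the counts of the pair was 2.03% and 3.46% in the anti-GAA libraries and 3.59% and 3.55% in the control libraries. The remaining copies were sparse, with 30 counts over all libraries for HSP90AB2P, 31 for HSP90B3P, 9 for HSP90AA5P and 2 for HSP90AB7P.

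**Figure D3:**
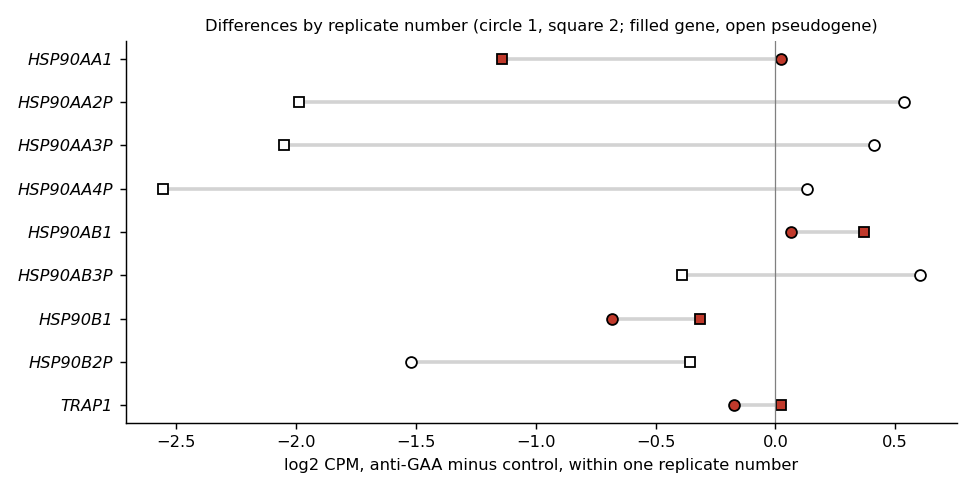
Difference in log2 CPM, anti-GAA minus control, between libraries of the same replicate number (x axis) for the 4 genes (filled) and the tested pseudogenes (open), with circles for replicates 1 and squares for replicates 2. HSP90AA1 and its copies lie between −1.14 and −2.55 in replicates 2 and at or above 0 in replicates 1, while HSP90B1 and its copy lie below 0 in both.

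Some exons of other genes overlap those of the members. The strand setting of the counting is not given in the sources used here, so that reads of antisense partners cannot be told apart. WDR20 overlaps HSP90AA1 over 197 nt on the other strand and was measured at 21.01 to 24.8 CPM. UQCC6 (805 nt) and TTC41P (105 nt) lie opposite to HSP90B1, at 51.2 to 69.9 CPM and 0.404 to 0.913 CPM. The miRNA gene MIR3652 overlaps HSP90B1 over 131 nt and was not analysed here. For TRAP1 the overlap is larger against its level, with 1477 nt of DNASE1 on the other strand at 11.2 and 11.5 CPM in the anti-GAA libraries and 10.4 and 18.4 CPM in the control libraries. ENSG00000263235 overlaps TRAP1 on the same strand over 65 nt and was at 1.01 and 1.24 CPM in the anti-GAA libraries and 2.09 and 3.42 CPM in the control libraries. Both anti-GAA libraries were below both control libraries, as for 16.9% of all tested genes (log2 fold change −1.27, edgeR unadjusted p = 0.0270, adjusted p = 0.996). At an unadjusted p under 0.05, edgeR found 3.46% of all tested genes lower. The values rest on 10 and 22 counts in the anti-GAA libraries and 32 and 58 in the control libraries.

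HSP90 works with co-chaperones that deliver clients, set the pace of ATP hydrolysis or modify the chaperone. Of 30 listed cytosolic co-chaperones, 29 were tested and 0 passed in either direction by edgeR or DESeq2, with 1 lower at an unadjusted p under 0.05 by each, where edgeR found 3.46% of all tested genes lower and 1.02% higher. Log2 fold changes were below 0 for 11 and above 0 for 18, against 48.4% below 0 over all tested genes, with a median of 0.044, where the median of all tested genes was 0.013. Scaling to total counts put 18 of the 29 below 0, and without control replicate 2 it was 16, with medians of −0.045 and −0.057. PPID, the cyclophilin that binds HSP90 through its TPR domain, was measured at 42.9 and 47.0 CPM in anti-GAA replicates 1 and 2, and at 82.9 and 89.9 CPM in control replicates 1 and 2. Both anti-GAA libraries were below both control libraries, as for 16.9% of all tested genes, and the log2 fold change of −0.94 (SE 0.20, edgeR adjusted p = 0.671) was the lowest of the list. The edgeR fit with the replicate block called PPID lower (adjusted p = 0.00669), as it did 1.37% of all tested genes. RPAP3, a subunit of the R2TP complex, had a log2 fold change of −0.35, and TTC4 and TOMM70, TPR proteins that bind HSP90, had 0.56 and 0.27.

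HSP70 proteins and their HSP40 partners act upstream of HSP90 on many clients. All 22 listed genes were tested and 0 passed by edgeR or DESeq2, also at an unadjusted p under 0.05. At that threshold edgeR found 3.46% of all tested genes lower and 1.02% higher. Log2 fold changes were below 0 for 9 and above 0 for 13, with a median of 0.067. Without anti-GAA replicate 2 it was 5 below 0 (median 0.14), without control replicate 2 it was 13 (median −0.088), and with scaling to total counts it was 12 (median −0.020). DNAJA4 and HSPA4L had log2 fold changes of −0.59 and −0.35, and DNAJB1 and BAG2 had 0.36 and 0.35. The HSF1-inducible genes and the HSF factors, the heat-shock transcription factors, share several of these genes with that list. Of 21 listed, 20 were tested and 0 passed by edgeR or DESeq2, also at an unadjusted p under 0.05, against the same shares of all tested genes. Log2 fold changes were below 0 for 8 and above 0 for 12, with a median of 0.13. Without control replicate 1 it was 3 below 0 (median 0.39), without anti-GAA replicate 2 it was 5 (median 0.16), and without control replicate 2 it was 12 (median −0.072). The small heat-shock protein HSPB1 had 841 and 668 CPM in the anti-GAA libraries and 696 and 489 CPM in the control libraries (log2 fold change 0.35). STIP1, which links HSP70 to HSP90, had 0.27, and FKBP4, an immunophilin of steroid receptor complexes, had −0.20. HSP90AA1, itself an HSF1 target, had −0.43.

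Partners of HSP90B1 in the endoplasmic reticulum numbered 21, of which 20 were tested and 0 passed by edgeR or DESeq2, also at an unadjusted p under 0.05. At that threshold edgeR found 3.46% of all tested genes lower and 1.02% higher. The log2 fold change was below 0 for 11 and above 0 for 9, with a median of −0.034. Without control replicate 1, 9 were below 0 and the median turned to 0.051, and with the length and GC correction it turned to 0.048. CALR, the lectin chaperone calreticulin, was at 35.2 and 42.2 CPM in the anti-GAA libraries and 55.4 and 53.1 CPM in the control libraries (log2 fold change −0.49, edgeR adjusted p = 0.996). DNAJC3 had −0.32, the disulfide isomerase PDIA6 had 0.60 at only 3.13 to 6.77 CPM, and CNPY2 had 0.44. Over all 6 lists, 2 genes other than the members have a coding run of at least 12 nt, and both were named after their values were seen. They are PDIA3, another disulfide isomerase (15 nt, log2 fold change 0.13), and DNAJB6, an HSP40 (13 nt, log2 fold change 0.14).

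Beside TRAP1, 17 mitochondrial chaperones and proteases were tested and 0 passed by edgeR or DESeq2, also at an unadjusted p under 0.05. At that threshold edgeR found 3.46% of all tested genes lower and 1.02% higher. Log2 fold changes were above 0 for 16 and below 0 for 1, with a median of 0.14, in a range from −0.059 (GRPEL2) to 0.36 (LONP1). The protease LONP1 was at 304 and 206 CPM in the anti-GAA libraries and 203 and 194 CPM in the control libraries, and DNAJC19, of the import motor, had a log2 fold change of 0.30. This split depended on the scaling: with scaling to total counts, which moved the median of all genes to −0.081, 6 of the 17 were below 0. Without anti-GAA replicate 1 it was 8 of the 17, without control replicate 2 it was 7, and without control replicate 1 it was 0.

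Of 32 listed HSP90 clients among kinases and transcription factors, all were tested and 0 passed by edgeR or DESeq2, with 2 lower at an unadjusted p under 0.05 by edgeR, where 3.46% of all tested genes were lower and 1.02% higher, and 1 by DESeq2. The log2 fold change was below 0 for 16 and above 0 for 16, and with scaling to total counts it was below 0 for 23. CDK6, a cell cycle kinase, was at 43.8 and 44.7 CPM in the anti-GAA libraries and 67.6 and 73.3 CPM in the control libraries (log2 fold change −0.67, edgeR adjusted p = 0.950). The edgeR fit with the replicate block called CDK6 lower (adjusted p = 0.0307), as it did 1.37% of all tested genes. AHR, the aryl hydrocarbon receptor, was at 41.7 and 38.2 against 56.5 and 55.6 CPM (log2 fold change −0.49, edgeR adjusted p = 0.996). INSR and EIF2AK1 had log2 fold changes of 0.35 and 0.33.

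The genes whose profile over the 4 libraries lay nearest to each member were found among 8894 genes that averaged 10 CPM or more, by Euclidean distance of centred log2 CPM. For HSP90AA1 they were SREK1, BAZ1A and SARNP, at distances of 0.144 to 0.181, against a length of 1.05 for the profile of HSP90AA1 itself. All 3 had a difference between −0.988 and −1.29 in replicates 2 and between −0.097 and 0.017 in replicates 1. They were picked as nearest over the same libraries, so this likeness follows from the selection. For HSP90AB1 they were FANCF, SGPL1 and CACUL1 (0.0267 to 0.0294), for HSP90B1 FAR1, ELL2 and DSG2 (0.0702 to 0.0926), and for TRAP1 SON, RRP15 and CCDC57 (0.0153 to 0.0449). These likenesses rest on 4 libraries and are a description.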

How the data were processed

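Unnormalized read counts of each gene in 4 HCT116 libraries were deposited by the authors, made with STAR and featureCounts on hg19 (GRCh37). The Ensembl release, strand setting and treatment of multi-mapping reads are not given in the sources used here. Of the per-sample columns, 0 were left unused.

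Genes kept by filterByExpr (15116) were scaled by TMM and tested by edgeR 4.0.16 (quasi-likelihood, group as the only term, R 4.3.3), with Benjamini-Hochberg adjustment over all tested genes and a threshold of 0.05. Per-library log2 CPM used a prior count of 2. DESeq2 1.42.0 was an alternative. Ratios were compared by exact permutation. Gene models came from GENCODE 44 on GRCh38, joined by Ensembl identifier (52181 of 63677 genes matched), and no hg19 position was converted. The MANE Select transcript was chosen for codons after the transcripts were seen. On simulated counts of this comparison (14850 genes), the test called 1.23% of 81 genes changed by 1 on the log2 scale and 56.5% of 115 changed by 2. The simulated counts carried a shift shared by libraries of the same replicate number, taken from the ratio of the control libraries. Their remaining spread was set in advance and not fitted to the libraries. On them the fit with the replicate block called 75.3% and 99.1%, with 10 false calls against 0 without the block. The shared shift favours the block by design, so these shares do not measure power in the real libraries.

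The members and lists were chosen with earlier results of these data known. Genes named were the members, pseudogenes with counts, the 2 genes of smallest p per direction in each list and any list gene called with or without a replicate block, the 3 nearest profiles per member, and genes with overlapping exons. HSP90AA3P, PDIA3 and DNAJB6 were named after their values were seen. The cell markers were added later. Alternatives were other scalings and filters, a replicate block, length and GC correction, summing listed pseudogene counts into their parents, and leaving out each library.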

Additional observations from a re-analysis of the deposited data

How the results depend on the processing

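None of the 4 genes was called at an adjusted p under 0.05 under any alternative run. Counts of all genes called lower and higher, 0 and 0 in the main test, were 3 and 0 with DESeq2, 111 and 5 without a filter on low counts, 207 and 51 with the replicate block, 192 and 99 with the block and a length and GC correction, and 0 to 16 and 0 to 3 when a library was left out (16 and 2 without control replicate 1, 2 and 3 without anti-GAA replicate 2). At an unadjusted p under 0.05, 523 lower and 154 higher genes became 1014 and 306 without the filter, 1466 and 1037 with the block, 1205 and 1511 with the block and correction, and 291 to 623 and 158 to 321 when a library was left out. Scaling to total counts gave 72 higher.

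The sample titles share a number between libraries of the same replicate, but the labels do not say that it pairs the libraries. The deviations of same-numbered libraries from their group means correlated at 0.564, and the common dispersion was 0.0549 without the block and 0.0148 with it. With the replicate block, the log2 fold change was −0.56 for HSP90AA1 (SE 0.23, edgeR adjusted p = 0.249), 0.22 for HSP90AB1 (adjusted p = 0.560), −0.50 for HSP90B1 (SE 0.16, adjusted p = 0.133) and −0.075 for TRAP1 (adjusted p = 0.852). PPID (adjusted p = 0.00669) and CDK6 (adjusted p = 0.0307) were called lower with the block.

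Leaving out a library gave log2 fold changes of −1.18 to 0.066 for HSP90AA1, 0.11 to 0.33 for HSP90AB1, −0.81 to −0.19 for HSP90B1 and −0.37 to 0.25 for TRAP1. HSP90AA1 reversed without anti-GAA replicate 2 (0.066), and TRAP1 without control replicate 1 (0.25) and without anti-GAA replicate 2 (0.11). The log2 ratio differences spanned −1.51 to −0.045 for HSP90AA1 to HSP90AB1, −0.996 to 0.87 for HSP90AA1 to HSP90B1, −0.89 to −0.082 for HSP90AA1 to TRAP1, 0.51 to 0.92 for HSP90AB1 to HSP90B1, −0.038 to 0.62 for HSP90AB1 to TRAP1 and −0.96 to 0.11 for HSP90B1 to TRAP1. HSP90AA1 to HSP90B1 reversed without anti-GAA replicate 2 (0.87) and without control replicate 1 (0.11), HSP90AB1 to TRAP1 without anti-GAA replicate 2 (−0.038), and HSP90B1 to TRAP1 without anti-GAA replicate 1 (0.11) and without control replicate 2 (0.025). The cause of the reversals was not tested. With scaling to total counts 18 co-chaperones were below 0, and 7 with the length and GC correction, against 11.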
